A study of Mus musculus with 2 samples.

Results

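A set of 10 genes of the mouse guanylate-binding proteins (GBPs) and immunity-related GTPases (IRGs) was followed in CD4 T cells after antigen stimulation. They were Gbp2, Gbp3, Gbp5, Gbp6, Gbp7, Irgm1, Irgm2, Igtp, Iigp1 and Tgtp1, chosen by name, and they make up 10 of the 27665 genes named on the arrays. The arrays carried 15 noncontrol probes for them in 24 spots. All 10 genes had a probe well above background on both arrays. Of these genes, 9 gave a lower signal on the co-culture array, as did 54.4% of all measured genes, and 5 were at least 2-fold lower, as were 5.54% of all. Ifng, the gene of the cytokine best known for inducing them, was 1.99-fold higher there.

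RNA came from CD4 T cells sorted from spleen cell cultures of female OVA-TCR-Tg mice, whose transgenic T cell receptor recognises ovalbumin (OVA). Both cultures held OVA at 0.1 mg/mL for 24 h. In the naive-only culture, spleen cells of these mice were plated at 2500000 cells/mL. In the co-culture, 1250000 fresh spleen cells per mL were combined with as many spleen cells of the same strain that had first been stimulated with the bacterial superantigen TSST-1 (0.1 μg/mL), and which are labelled anergic, a state of weak response to antigen. Whether fresh and pre-stimulated T cells were parted at the sort is not stated, so RNA of both may be on the co-culture array. Age and the number of mice are not given in the sources used here.

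With 1 single-colour array in each group, the differences have no replicate check and none was tested. Signals are processed intensities from the scanner software. A difference is the log2 signal on the co-culture array minus that on the naive-only array, after each array was set to its own 75th percentile, and the error beside it is the software's technical error. That error leaves out the variation between cultures. Because the RNA is from many cells, fewer cells of a type and less RNA per cell cannot be told apart. The arrays shared 1 slide and scan. Of their 55681 noncontrol probes, 25744 (46.2%) exceeded background in the naive-only sample and 25136 (45.1%) in the co-culture sample, and no spot was saturated.

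GBPs are large GTPases that gather on the membranes of vacuoles and on bacteria inside cells, where they help open the vacuole and feed the inflammasome. IRGs are smaller GTPases of the same defence. Their regulators Irgm1, Irgm2 and Igtp (also called Irgm3) guard the cell's own membranes, and effectors such as Iigp1 (Irga6) and Tgtp1 (Irgb6) load onto the vacuole of parasites such as Toxoplasma. Interferon gamma, which activated T cells secrete, signals through its receptor and the kinases Jak1 and Jak2 to gamma-activated sites in promoters. Type I interferons signal through Stat2 and Irf9, among others, to interferon-stimulated response elements, which Irf1 and other IRF factors also bind.

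The letters of these elements were looked for in 300-base promoters (250 bases before to 50 after the transcription start, RefSeq, GRCm38.p6), since they are the sequences through which the genes are known to answer interferon. Promoters were found for 8 of the 10 genes, all but Gbp6 and Iigp1. The search used TTCNNNGAA for the gamma-activated site, which reads the same on both strands and was counted once, and GAAANNGAAA on both strands for the response element. The following 30-base windows hold the response element matches, read on the gene's strand 5′ to 3′. Capitals mark every match inside a window, a gamma-activated site included where it falls there. A response element on the other strand, as in the GBP genes, appears here as its reverse complement. Neighbouring response element matches in Irgm1 and Gbp3 overlap each other.
Igtp: ccatTTCTAGGAActGAAACTGAAAgctgt
Irgm2: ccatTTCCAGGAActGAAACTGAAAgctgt
Tgtp1: ccatTTCCAGGAAtcGAAACTGAAAcctac
Irgm1: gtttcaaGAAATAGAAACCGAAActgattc
Gbp2: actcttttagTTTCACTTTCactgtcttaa
Gbp3: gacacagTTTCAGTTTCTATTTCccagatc
Gbp5: acttgtgtagTTTCAATTTCagtttagaga
Gbp7: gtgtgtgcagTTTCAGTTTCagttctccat

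The windows lie at chr11:58199507-58199536 (Igtp, plus strand), chr11:58214898-58214927 (Irgm2, plus strand), chr11:48992309-48992338 (Tgtp1, minus strand) and chr11:48871428-48871457 (Irgm1, minus strand). Those of the GBP genes lie on the plus strand at chr3:142620594-142620623 (Gbp2), chr3:142559992-142560021 (Gbp3), chr3:142496759-142496788 (Gbp5) and chr3:142530273-142530302 (Gbp7). The response element letters were found in all 8 of these genes, against 1131 (3.44%) of the 32851 promoters. Gbp3 has a second start site whose promoter holds neither motif. The gamma-activated site letters were found in 5 of the 8, namely Gbp5, Gbp7, Igtp, Irgm2 and Tgtp1, against 2726 (8.30%) of all promoters, and both motifs together in the same 5 against 149 (0.454%) of all.

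Gbp5 and Gbp7 each held the gamma-activated site letters at 2 places, apart from the response element. The stretch that holds both of Gbp7's lies at chr3:142530229-142530258, and the window of the Gbp5 site nearer the start lies at chr3:142496872-142496901, both on the plus strand.
Gbp7: tTTCCAGGAAaagcagaagcTTCTCAGAAa
Gbp5: tggccgttatTTCTCAGAAccaagcacaga

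In Igtp, Irgm2 and Tgtp1 both motifs stood in 1 run with the same spacing, as the capitals show. A search for that run, chosen after these windows were seen, found it in 5 of the 32851 promoters (0.0152%). They were those of Igtp, Irgm2, Tgtp1, Tgtp2 and Gm12185, all IRG genes on chromosome 11. A match of letters describes the window only and is no measurement of binding.

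**Figure D1:**
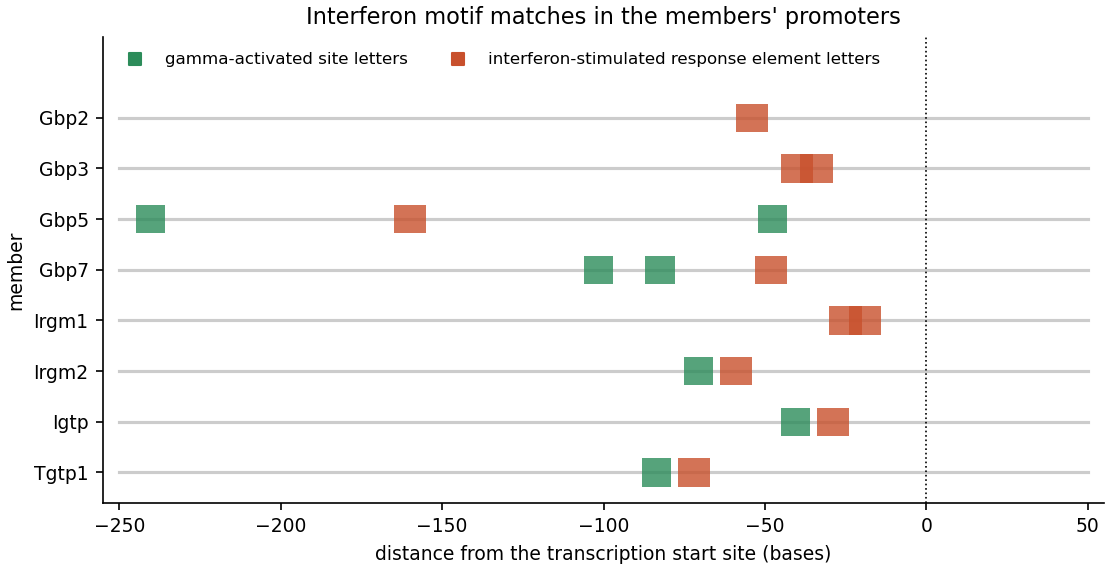
Positions of motif matches in the promoters of the 8 GBP and IRG genes with a RefSeq promoter. The horizontal axis is the distance in bases from the transcription start site (dotted line), each grey line is the 300-base window, green blocks are gamma-activated site letters and orange blocks response element letters. Every gene has an orange block, and in Irgm2, Igtp and Tgtp1 a green block stands just before it.

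The first question was how far the GBP genes differed between the cultures. Of the 5 GBP genes, Gbp2, Gbp6 and Gbp5 were each more than 4-fold lower on the co-culture array, Gbp3 was 1.43-fold lower and Gbp7 1.16-fold higher. Among all 14378 genes with a measured value in both samples, 796 (5.54%) were 2-fold or more lower, 225 (1.56%) at least 4-fold lower and 1110 (7.72%) at least 2-fold higher. No GBP gene was 2-fold higher, and the median over the 5 was -2.12, against -0.05 over all measured genes. That median is the value of Gbp5's brighter probe. As means of their 2 probes, Gbp5 and Gbp6 were at -1.19 and -1.95, short of 4-fold.

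Gbp2, which binds to parasite vacuoles and to bacteria, gave a signal of 26573 in the naive-only sample and 3542 in the co-culture. Its difference was -2.92 ± 0.20 (technical error), or 7.55-fold lower, and 0.556% of the measured genes had a lower difference. The probe lies on chromosome 3 at 142300719 to 142300778 (mm9). Over the 9 alternative ways of processing, its difference stayed between -2.92 and -2.86. Some of these, such as the mean over probes, cannot alter the value of a gene with 1 probe.

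Gbp6 is a member of the family's group on chromosome 5. Its brighter probe (105702128 to 105702187) gave 1021 in the naive-only sample and 197 in the co-culture, a difference of -2.39 ± 0.21 or 5.22-fold lower. The accessions of that probe also name Gbp10, so the probe may read both genes. A second probe (105700056 to 105700115), with accessions of Gbp6 alone, gave 602 and 211, a difference of -1.52 ± 0.21 or 2.87-fold lower. Both probes were lower on the co-culture array, and their gap of 0.86 exceeded its technical error of 0.29.

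Gbp5, known for promoting inflammasome assembly, gave 6800 in the naive-only sample and 1574 in the co-culture at its brighter probe (chromosome 3, 142184779 to 142184838). The difference was -2.12 ± 0.20, or 4.35-fold lower. Its other probe (142181426 to 142181485) gave 220 and 184, a difference of -0.27 ± 0.21. The gap of 1.85 between the probes was the widest of the 4 genes with 2 measured probes, and the mean over both probes was -1.19. The size of Gbp5's difference therefore depends on which probe is read.

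Gbp3 (probe at 142236032 to 142236091 on chromosome 3) gave 1864 in the naive-only sample and 1315 in the co-culture. Its difference was -0.51 ± 0.20, short of 2-fold, and 17.4% of all measured genes were lower than it. Gbp7, which helps in the defence against parasites and bacteria together with other GBPs, gave 476 and 558 (142209379 to 142209438). Its difference of 0.22 ± 0.21 was the 1 positive value of the 10 genes and was about the size of its technical error. A second probe of Gbp7 was not well above background in either sample.

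**Figure D2:**
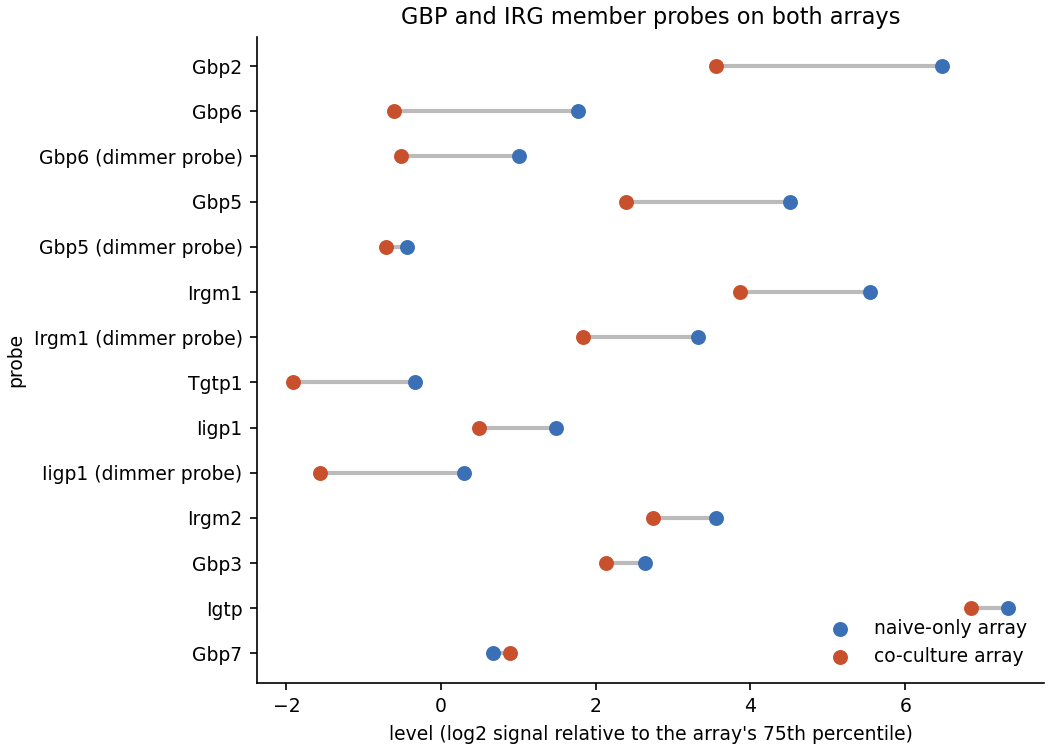
Levels of the 14 measured GBP and IRG probes on the naive-only array (blue) and the co-culture array (orange), as log2 signal relative to the array's 75th percentile on the horizontal axis. Each point is 1 probe on 1 array, and levels are to be compared within a probe only. In 13 of the 14 probes the orange point lies to the left of the blue one, and Gbp7 is the exception. For comparison, 54.4% of all measured genes were lower on the co-culture array.

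All 5 IRG genes gave lower signals on the co-culture array, as did 54.4% of all measured genes. Of the 5, Irgm1 and Tgtp1 were at least 2-fold lower, as were 5.54% of all. Their median difference was -0.99. By role, the 3 regulators lay between -1.67 and -0.47 and the 2 effectors between -1.58 and -0.99, so the ranges of the roles overlapped.

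Among the regulators, Irgm1, which also acts in autophagy and in the upkeep of lymphocytes, gave 13932 in the naive-only sample and 4392 in the co-culture. Its difference was -1.67 ± 0.20, or 3.19-fold lower (chromosome 11, 48679069 to 48679128). A second probe gave 2988 and 1079, a difference of -1.48 ± 0.20. The gap of 0.20 between the probes was within its error of 0.29, so Irgm1 was read alike by both.

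Irgm2 (58036093 to 58036152) gave 3517 in the naive-only sample and 2013 in the co-culture. Its difference was -0.81 ± 0.20, or 1.76-fold lower, short of 2-fold.

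Igtp (58020927 to 58020986) was the 1 gene of the 10 whose probe was printed in 10 spots. These spots ranged from 44254 to 50814 on the naive-only array (median 48488.5) and from 34244 to 35474 on the co-culture array (median 34968.5). The spots of the arrays did not overlap, which shows that spot noise (SD 0.060 and 0.021, log2) was small beside the difference. Repeated spots share 1 RNA preparation and are not replicates of the culture. The difference of the mean log2 signals was -0.47 ± 0.20, or 1.39-fold lower, and 19.2% of all measured genes had a lower value.

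Of the effectors, Tgtp1 gave 237 in the naive-only sample and 79.9 in the co-culture (48799587 to 48799646). Its difference was -1.58 ± 0.23, or 2.98-fold lower, and -1.01 after the normexp background correction. The accessions of its probe also name Tgtp2, a near-identical copy, so the signal cannot be given to either gene alone. A probe that the file names Tgtp2, whose accessions likewise hold both genes, gave 41493 and 12406, a difference of -1.75 ± 0.20. A dimmer probe of that name, again with both genes, gave 159 and 38.9, a difference of -2.05, or -1.05 after normexp. These probes may read the same transcripts, so their shared direction does not speak for Tgtp1 and Tgtp2 separately.

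Iigp1 gave 836 in the naive-only sample and 423 in the co-culture at its brighter probe. The difference was -0.99 ± 0.20, or 1.99-fold lower, just short of the 2-fold threshold. Its dimmer probe gave 368 and 102, a difference of -1.86 ± 0.22 or 3.62-fold lower. Iigp1 thus passed 2-fold by the dimmer probe and by the mean of both probes (-1.43). By the brighter probe it did not do so in the main setting. Under quantile normalization and in the deposited table that probe was at -1.01, just past 2-fold.

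**Figure D3:**
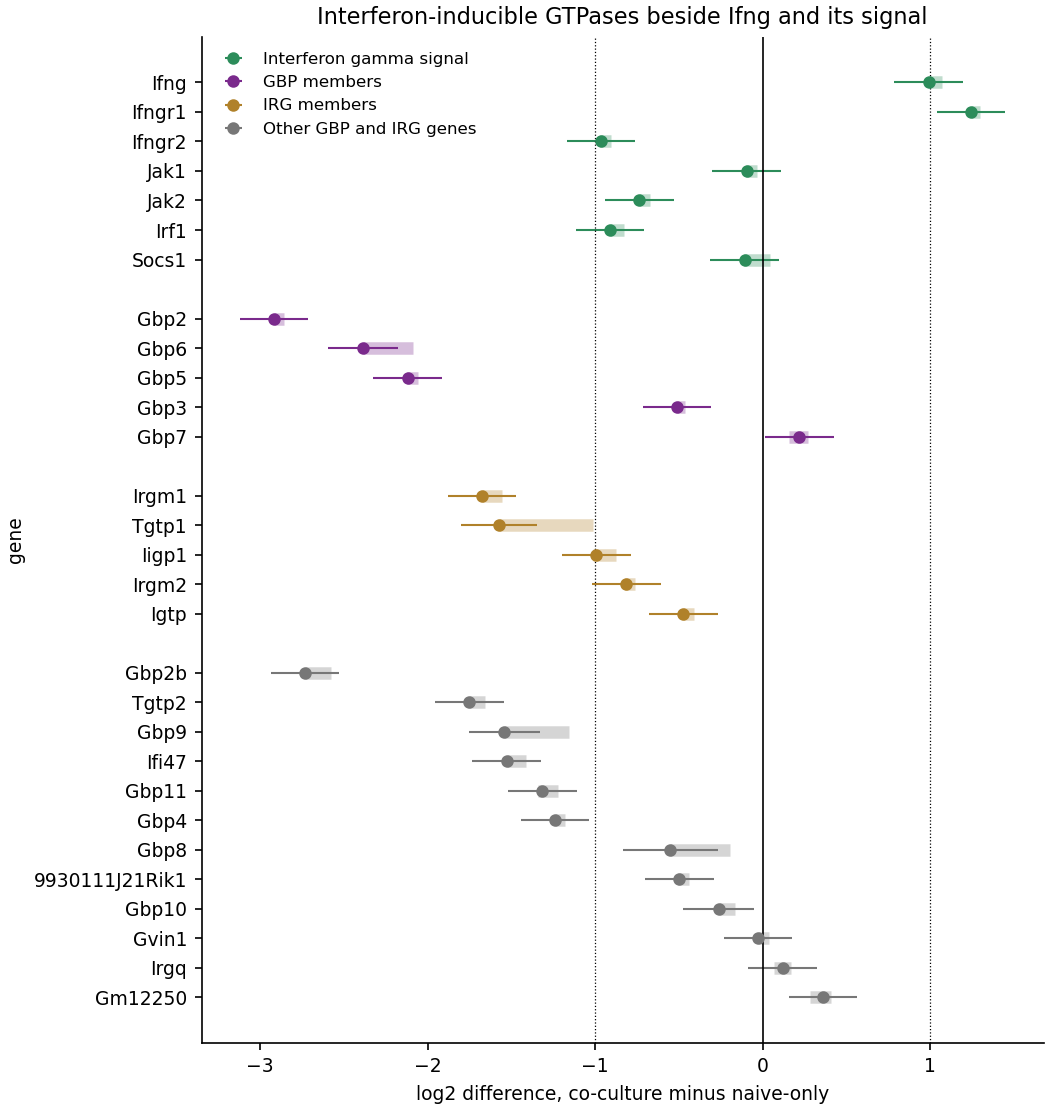
Log2 difference (co-culture minus naive-only, horizontal axis) of Ifng and genes of its signal (green), the 5 GBP genes (purple) and 5 IRG genes (brown) chosen by name, and other measured genes of the family (grey). Points are the main values, error bars the technical error, pale bars the range over the alternative settings that keep the brightest probe, and dotted lines mark 2-fold; Gbp2 is lowest at -2.92, while Gbp7 (0.22) is the 1 chosen GTPase gene above 0, where Ifng (0.99) and Ifngr1 (1.25) also lie.

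Over the 10 genes the differences ran from -2.92 to 0.22, with a median of -1.28 (2.44-fold lower) and an SD over genes of 0.98. For comparison, the middle 50% of all measured genes lay between -0.37 and 0.33. In the order of the differences, the steps from Gbp2 to Gbp6, Gbp5 to Irgm1, Tgtp1 to Iigp1, Irgm2 to Gbp3 and Igtp to Gbp7 exceeded their technical error. The neighbours Gbp6 and Gbp5, Irgm1 and Tgtp1, Iigp1 and Irgm2, and Gbp3 and Igtp did not differ beyond it. That error was near 0.20 for almost every gene, also for Igtp with its closely alike spots, so it is no spread measured gene by gene. The order also rests on the brightest probes. Gaps between the probes of Gbp5 (1.85), Gbp6 (0.86) and Iigp1 (0.86) were wider than the widest step (0.69), while that of Irgm1 was 0.20.

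The promoter motifs did not part the genes by size of difference. The 5 genes with both motifs lay between -2.12 (Gbp5) and 0.22 (Gbp7), with 2 of the 5 at least 2-fold lower. The 3 genes with the response element alone, Gbp2, Gbp3 and Irgm1, lay between -2.92 and -0.51, with 2 of the 3 at least 2-fold lower. Over all measured genes, 5.54% were at least 2-fold lower. Gbp7, the 1 gene that was not lower, held the letters of both.

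The rest of the family on the arrays was read from a list of other GBP, IRG and related GTPase genes, of which 18 were present. Of these, 12 had a measured value in both samples, and their median was -0.90. Among the 12, 6 were at least 2-fold lower, as were 5.54% of all measured genes. None was 2-fold higher, against 7.72% of all. The 6 lower genes were Gbp2b, Tgtp2, Gbp9, Ifi47, Gbp11 and Gbp4, of which Tgtp2 may share its signal with Tgtp1. Gbp2b, the neighbour of Gbp2, gave 4610 in the naive-only sample and 698 in the co-culture, a difference of -2.73, and its second probe gave the same value. Ifi47 (also called Irg47) gave 41448 and 14460, a difference of -1.53.

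Gbp9 differed by -1.54, Gbp11 by -1.31 and Gbp4 by -1.24. Short of 2-fold were Gbp8 (-0.55), 9930111J21Rik1 (-0.50), Gbp10 (-0.26, from a probe whose accessions also name Gbp6), the very large GTPase gene Gvin1 (-0.03) and Irgq (0.12). Gm12250, which encodes the effector Irgb10, gave 1449 and 1872, a difference of 0.36 ± 0.20. Mx2 and Mx1, antiviral GTPases, and Gm5431 exceeded background in the naive-only sample alone, at least 4.91-fold, 1.20-fold and 1.46-fold higher there. After normexp they differed by -0.98, -0.53 and -0.11, so the bounds of Mx2 and Gm5431 were not met under that correction.

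These genes lie in groups along the chromosomes, and neighbours did not share 1 difference. On chromosome 3 the order was Gbp5 (-2.12), Gbp7 (0.22), Gbp3 (-0.51), Gbp2b (-2.73) and Gbp2 (-2.92), so Gbp7 and Gbp3 stood between genes that were over 4-fold lower by their brighter probes. On chromosome 5 all 6 genes were below 0. The probes read here for the neighbours Gbp6 and Gbp10 each carry accessions of both. Their values (-2.39 and -0.26) thus cannot be set apart by gene. The other Gbp6 probe, with accessions of Gbp6 alone, differed by -1.52. On chromosome 11, the group with Irgm1, Tgtp1, Tgtp2 and Ifi47 held differences from -1.75 to -0.50 among its measured genes. The other group on chromosome 11 held Gm12250 (0.36), Igtp (-0.47) and Irgm2 (-0.81), none past 2-fold.

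**Figure D4:**
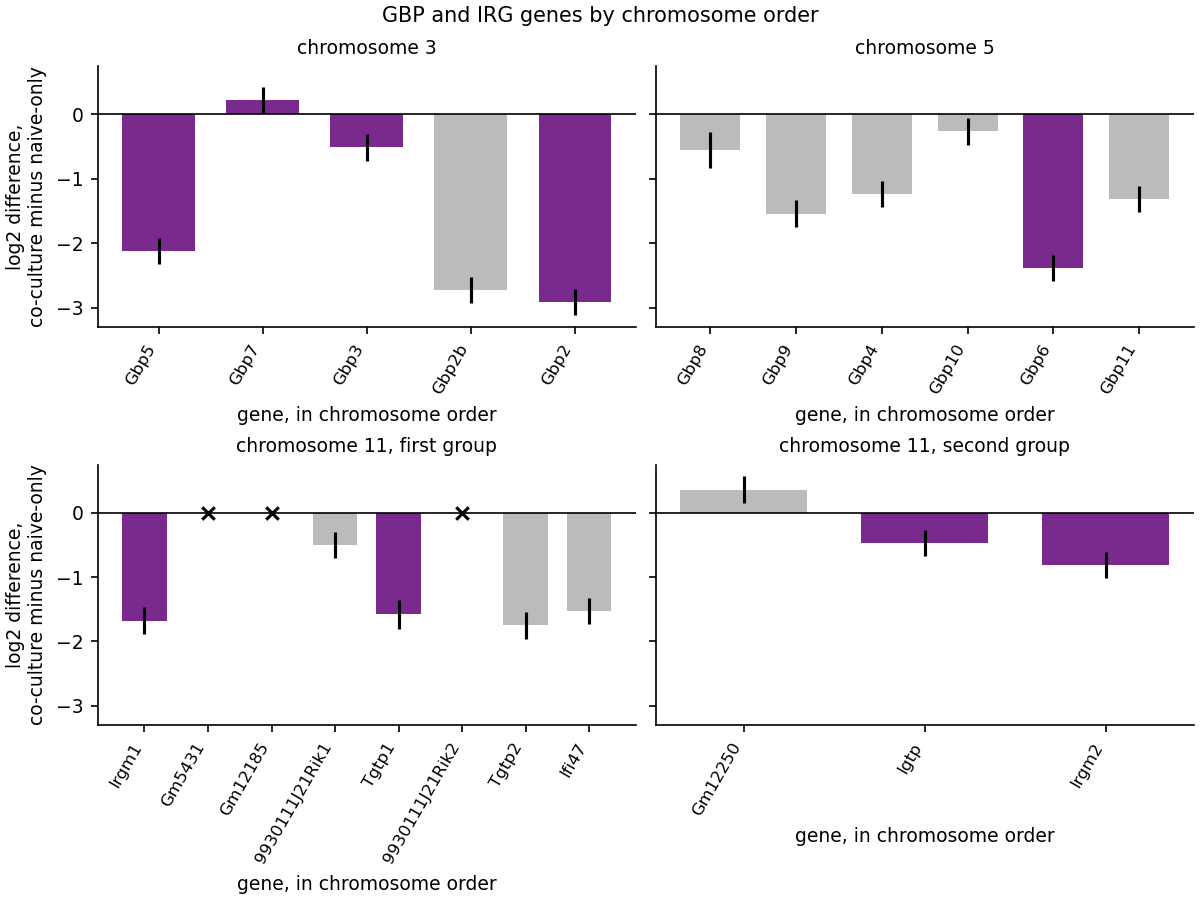
Log2 differences (vertical axis) of GBP and IRG genes in the order in which they lie along chromosomes 3, 5 and 11 (RefSeq order, not to distance). Purple marks the genes chosen by name, error bars are the technical error, and crosses mark genes not above background on both arrays. On chromosome 3 Gbp7 (0.22) and Gbp3 (-0.51) lie between Gbp5 (-2.12 by its brighter probe) and the pair Gbp2b and Gbp2.

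The second question was how the GTPase genes stood against Ifng. Ifng gave 29065 in the naive-only sample and 58122 in the co-culture, a difference of 0.99 ± 0.20. Of the 10 GTPase genes, Gbp7 alone had a difference of the same sign. A difference below 0, opposite to Ifng, was also that of 54.4% of all measured genes. The distance between the difference of Ifng and that of a GTPase gene ran from 0.77 (Gbp7) to 3.91 (Gbp2). With 1 array per group, this opposition is a description of these RNA preparations.

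Along the pathway from Ifng to the GTPases, the steps did not move one way. The ligand-binding receptor chain Ifngr1 gave 2140 in the naive-only sample and 5106 in the co-culture, 2.37-fold higher at 1.25 ± 0.20. The signalling chain Ifngr2 gave 1557 and 802, 1.95-fold lower at -0.97 ± 0.20. The receptor chains thus stood on opposite sides of 0.

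Of the kinases, Jak1 differed by -0.10 ± 0.20 and Jak2 by -0.74 ± 0.20. Irf1, which interferon gamma induces and which itself activates GBP and IRG promoters, gave 21187 and 11328, 1.88-fold lower at -0.91 ± 0.20. Socs1, an inhibitor of the Jak kinases, differed by -0.11 ± 0.20, and by 0.05 after normexp. Of the 14 genes of the interferon gamma signal list, all measured, Ifngr1 was at least 2-fold higher, none was 2-fold lower and the median was -0.15.

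The type I pathway can induce several GBP and IRG genes as well, so its genes were read beside them. Of the ligand genes, Ifnb1 was not well above background in either sample. Probes of 6 interferon alpha genes (Ifna1, Ifna2, Ifna5, Ifna12, Ifna14 and Ifnab) were above background in both, and none differed by 2-fold. The lowest of them were Ifna14 (119 and 61.2, -0.97 ± 0.24, or -0.51 after normexp) and Ifna12 (60.9 and 35.4, -0.79 ± 0.28, or -0.31 after normexp). These genes are close copies, so their probes may read more than 1 of them. Naming them was a choice made with their values known. The receptor chains Ifnar1 and Ifnar2 differed by 0.03 and 0.39, Stat2 by 0.36 and Irf9 by -0.88. Irf7, the factor that amplifies the type I response, gave 331 in the naive-only sample and 36.6 in the co-culture, a difference of -3.18 ± 0.26 or 9.09-fold lower, and -2.07 after normexp. Of 22 genes of this list on the arrays, 14 were measured, Irf7 was at least 2-fold lower and the median was 0.02.

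Other target genes of the interferons gave a mixed picture beside the GTPases. The shares to set beside their counts are 5.54% of all measured genes at least 2-fold lower and 7.72% at least 2-fold higher. Of 32 measured targets linked mainly to interferon gamma, 6 were at least 2-fold lower, 1 was higher and the median was -0.13, against -1.28 for the 10 GTPase genes. The lowest were Cd40, a receptor of antigen-presenting cells (1939 in the naive-only sample and 133 in the co-culture, -3.88), the chemokine Cxcl10 (3482 and 304, -3.52, or -1.92 as the mean of its probes) and the transcription factor Batf2 (669 and 119, -2.51). Ido1, a tryptophan-degrading enzyme, was the 1 higher gene at 1.02, and 0.37 after normexp. Of 32 measured targets linked mainly to type I interferon, 15 were at least 2-fold lower, none was higher and the median was -0.89. The lowest of the measured ones were Oasl1, Ifi44 and Isg15, at -4.49, -3.96 and -3.67, and at -3.54, -2.37 and -3.62 after normexp. Another 5 targets, Ifit1, Rsad2, Ifit3, Mx2 and Mx1, exceeded background in the naive-only sample alone, with Ifit1 at least 13.3-fold, Rsad2 at least 8.63-fold and Ifit3 at least 5.15-fold higher there. After normexp, Ifit1, Rsad2 and Ifit3 differed by -2.17, -1.69 and -1.36, smaller in size than these bounds. Its offset makes differences of dim probes smaller, so these values do not test the bounds.

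**Figure D5:**
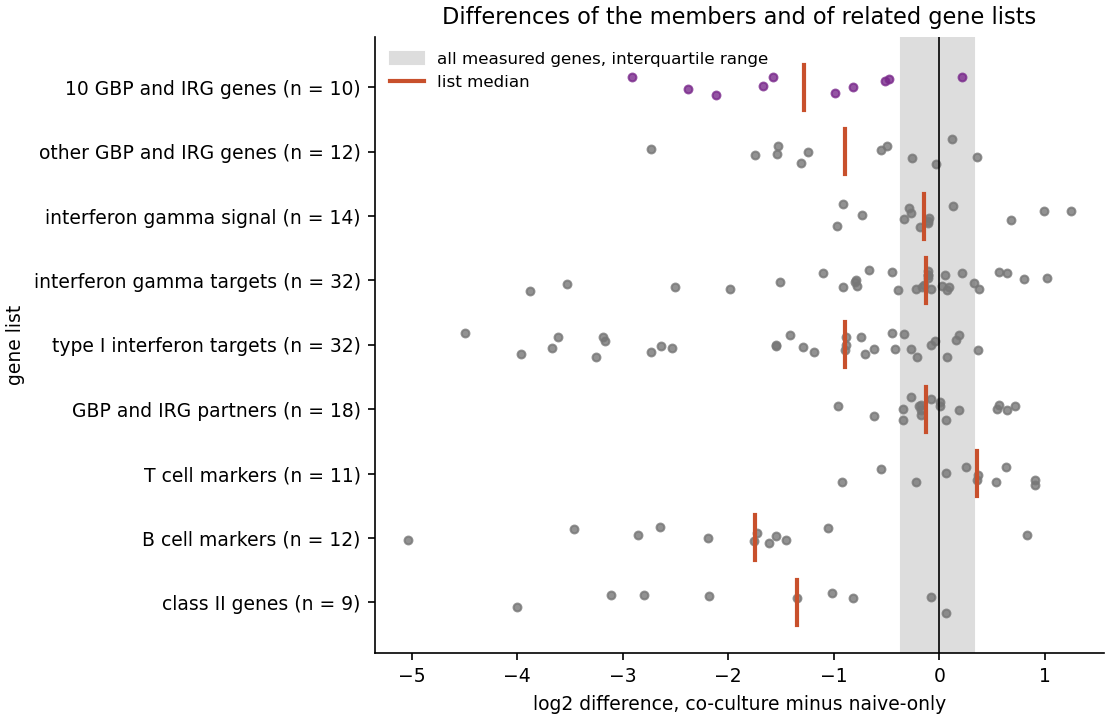
Log2 differences (horizontal axis) of the measured genes of each list, 1 point per gene, with the list median as an orange bar and the interquartile range of all measured genes in grey. The medians of the 10 GBP and IRG genes (-1.28), the other genes of the family (-0.90) and type I interferon targets (-0.89) lie left of the grey band, as do those of the B cell (-1.74) and class II genes (-1.35) drawn here.

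The labelled cell type was checked against marker lists. Among all measured genes, 54.4% were lower by any amount, 5.54% at least 2-fold lower and 7.72% at least 2-fold higher. All 11 T cell markers on the arrays were above background on both, none was past 2-fold, and Cd3d differed by 0.90 and Cd3e by 0.37. Their levels, summed relative to the 75th percentile, were 1327 in the naive-only sample and 1576 in the co-culture. B cell and class II genes were lower on the co-culture array beside the GTPases. All 15 B cell markers exceeded background in the naive-only sample and 12 did so in the co-culture (Blk, Fcrla and Pax5 did not). Of those 12, 11 were at least 2-fold lower, and the summed level of the list was 56.5 in the naive-only and 12.9 in the co-culture sample.

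The B cell marker Ms4a1 gave 3438 in the naive-only sample and 106 in the co-culture. Among class II genes, 6 of 9 measured were lower by 2-fold or more, with a summed level of 216 and 53.4, and Ciita exceeded background in the naive-only sample alone. Dendritic cell markers were mixed: 7 of 8 measured were below 0, 3 of them at least 2-fold lower (Fscn1 23.6-fold, Flt3 7.29-fold and Tcf4 2.89-fold), and Ccl22 and Ccl17 exceeded background in the naive-only sample alone, at least 22.0-fold and 7.12-fold higher there. Their median was -0.78, yet their summed level was 217 and 231, since Siglech was bright in both samples (48922 and 45263) and Batf3 was 11.4-fold higher in the co-culture.

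Of the natural killer cell markers, 3 of 4 measured were at least 2-fold lower (Eomes 14.3-fold, Tyrobp 2.83-fold and Fcer1g 2.38-fold) and the median was -1.37. Ncr1 and Klra8 exceeded background in the naive-only sample alone, and Klrd1 and Klrk1 in the co-culture alone. Their summed level was 30.3 and 76.7, most of it Gzma (6336 and 22167). After normexp, Fscn1 differed by -3.63 in place of -4.56, Flt3 by -1.45 in place of -2.87, Eomes by -2.90 in place of -3.84 and Ms4a1 by -4.35 in place of -5.03. Ccl22 and Ccl17 differed by -2.71 and -1.31 after normexp, smaller in size than their bounds. These values do not test the bounds either, given the offset. Macrophage and monocyte markers had summed levels of 16.8 and 17.2, with 2 of 10 measured at least 2-fold lower and a median of -0.34. The erythroid median was -0.53, with 2 of 4 measured at least 2-fold lower and 1 higher. The plasma cell median was -0.43, with 2 of 7 lower, 2 higher and summed levels of 173 and 233. Neutrophil markers had a median of 0.21, with 1 of 4 measured at least 2-fold lower and 0 higher. For CD8 T cell markers the median was -0.18, with 1 of 5 lower and 1 higher. The part of these other cells in the differences of the GBP and IRG genes was not tested.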

How the data were processed

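Gene expression was measured on 2 single-colour (Cy3) Agilent arrays, 1 per group, with groups from the sample titles. RNA was amplified (Ovation V2) before labelling, per the labels' protocols, which can alter relative levels. The intensity of each spot came from Feature Extraction, as version 10.7.1.1 per the file headers and version 9.5.1.1 per the submitters' processing notes, and the processed intensity is background-subtracted. The deposited value table holds an intensity that the authors normalized (median 14.5 on both arrays). Its ranks matched the scanner values on each array (Spearman 1), and its differences correlated across probes with those used here (r = 0.999).

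Processed signals were log2-transformed, averaged over repeated spots of a probe and set relative to the 75th percentile of the noncontrol probes on that array (299.4 and 301.3 intensity units). A gene was its probe with the highest mean level, and was measured where the software called that probe well above background on both arrays. A gene above background on 1 array has a bound: that level over the other array's lowest level called above background, or over the gene's own signal there if higher. Bounds were worked out in the main processing only. Accessions of 27235 of the 36743 named probes matched a RefSeq table (GRCm38.p6, used for names, order and promoters), and 9508 probes kept the file's name. Probe positions are those of mm9 in the file headers, and no annotation of mm9 was used here.

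All 10 members, the measured genes of the family, set genes of the 2 interferon pathways, up to 3 past 2-fold in each direction of the other pathway lists and the first 2 markers of cell lists could be named; other markers were named after their values were seen. Of the genes this takes, 2 are not reported here. Members and lists were chosen with earlier results of these data known. No test was possible with 1 array per group. Alternatives changed the scaling, background correction (normexp, offset 50), spots, probes, filter and fold threshold. The offset of normexp makes differences of dim probes smaller by construction. The scripts were tested on simulated data. Python 3.11.15, numpy 2.4.6, pandas 2.3.3, matplotlib 3.10.9, R 4.3.3 and limma 3.58.1 were used.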

Additional observations from a re-analysis of the deposited data

How the results depend on the processing

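Of 232 comparisons between a main value and an alternative, 214 stayed within the main value's error or within 1.5 times the main count and 18 moved. A reversal was scored only for differences of at least 2-fold in the main setting, and none was found. Some of the 214 were fixed in advance, since the filters on probe brightness cannot alter a gene's own difference. Nor can the mean over probes where a gene has 1 measured probe. All 10 members kept their sign under each alternative that could give a value. Under normexp followed by quantile normalization the median of the members was -0.94. The count of members at least 2-fold lower was 6, not 5, under quantile normalization, in the deposited table and with the mean over probes. Under these, 775, 775 and 806 of all measured genes were at least 2-fold lower. The count was 3 (of 6 kept) in the brighter 50% of measured genes, where 193 of all 7189 genes were. At a 4-fold threshold the count was 3, against 1.56% of all measured genes. The interferon gamma signal list had 2 genes at least 2-fold higher, Ifng among them, under the percentile over probes above background, the median, quantile normalization, the deposited table and normexp. Targets linked mainly to interferon gamma had 0 higher under normexp (of 31) and in the brighter 50% (of 24 kept). In the brighter 50%, 2 of those 24 were at least 2-fold lower. So were 2 of 12 kept targets of type I interferon and 0 of 5 kept genes of type I ligands and signal. The causes were not tested. No paired analysis was possible because each group had 1 array and the labels give no replicate numbers, and for the same reason no replicate could be left out. Signal limits the reading of probes near background.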

Other observations

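Proteins that load GBPs and IRGs onto membranes or act after them were read from a list of 19 genes, of which 18 were measured. None was 2-fold past 0 in either direction, and the median was -0.12. The largest differences were those of Trim21, a ubiquitin ligase (-0.96), Gabarapl1, of the autophagy conjugation system (0.72), Casp4, the inflammatory caspase that GBPs help to activate (0.64), Atg7, also of the autophagy conjugation system (-0.62), and Aim2, a DNA sensor (0.57). These 5 were named for their size after their values were seen.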
